A study of Mus musculus with 12 samples.

Results

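Dendritic cells in TC2Ras tumors were followed through 9 genes that mark their subsets. These were Xcr1, Clec9a, Batf3 and Itgae for type 1 conventional dendritic cells (cDC1), Cd209a for type 2 cells (cDC2), Flt3 and Zbtb46 for the dendritic lineage as a whole, Fscn1 for mature cells and Siglech for plasmacytoid cells. They were taken by symbol from the 55401 genes of the count table, with all 12 tumors, and all 9 passed the filter on low counts that left 20818 genes for testing. RNA was sequenced from tumors that grew for 21 days after 125000 TC2Ras cells, a mouse prostate cancer line with active Ras, were implanted under the skin of both flanks, and the left and right tumor of a mouse were combined into 1 sample. Each of the 4 groups held 3 samples. Control tumors grew from TC2Ras cells alone in mice drinking water with no added inorganic arsenic (iAs), ASC tumors from TC2Ras cells mixed with 1% ASC-GFP cells, As300 tumors (A300 in the labels) from TC2Ras cells in mice drinking 300 ppb iAs, and ASC_As300 tumors (ASC300 in the labels) from the mixture in mice drinking 300 ppb iAs. ASC-GFP cells are adipose-derived stromal cells, here a primary isolate from male mice that express GFP, and TC2Ras is a single cell line. All mice first ate a low-arsenic diet, and the strain and age of the hosts are not given in the sources used here.

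Dendritic cells take up antigen and present it to T cells. The cDC1 subset depends on the transcription factor Batf3, takes up dead cells through the receptor Clec9a and carries Xcr1, the receptor for the chemokine Xcl1 that T and NK cells release, and in tumors it is known for cross-presenting antigen to CD8 T cells. The cDC2 subset presents mainly to CD4 T cells, plasmacytoid cells are known for type I interferon, and the cytokine Flt3 ligand, read by the receptor Flt3, drives the development of all of them.

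The cDC1 genes Xcr1, Clec9a and Batf3 were the members whose values in ASC_As300 tumors all lay above those in As300 tumors, as in 11.3% of all genes. Itgae, also a cDC1 gene, overlapped in that comparison. Batf3 was the only member called in any comparison of the fit to all 12 tumors, in the ASC effect over both iAs levels, beside 1.45% of all genes. The promoters of Xcr1, Clec9a and Batf3 are printed to show the sequence next to the genes that the results turn on. Each line runs 5' to 3' from 250 bases before to 50 bases after the start of the RefSeq gene (build GRCm38.p6), and capitals mark motif matches. The windows are chr1:191098164-191098463 on the plus strand for Batf3, chr6:129408612-129408911 on the plus strand for Clec9a and chr9:123861980-123862279 on the minus strand for Xcr1.
Batf3: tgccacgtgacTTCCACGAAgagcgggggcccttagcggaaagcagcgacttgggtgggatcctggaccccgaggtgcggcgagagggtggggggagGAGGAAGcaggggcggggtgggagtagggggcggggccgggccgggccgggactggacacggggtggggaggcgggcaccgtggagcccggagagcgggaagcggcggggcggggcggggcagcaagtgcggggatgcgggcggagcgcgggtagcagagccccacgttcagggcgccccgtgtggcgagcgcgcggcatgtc
Clec9a: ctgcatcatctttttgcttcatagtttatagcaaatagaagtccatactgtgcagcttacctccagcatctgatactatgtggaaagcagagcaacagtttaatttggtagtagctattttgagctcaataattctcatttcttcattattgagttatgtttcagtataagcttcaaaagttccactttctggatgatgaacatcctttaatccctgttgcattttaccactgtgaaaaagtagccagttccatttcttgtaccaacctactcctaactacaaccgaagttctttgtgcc
Xcr1: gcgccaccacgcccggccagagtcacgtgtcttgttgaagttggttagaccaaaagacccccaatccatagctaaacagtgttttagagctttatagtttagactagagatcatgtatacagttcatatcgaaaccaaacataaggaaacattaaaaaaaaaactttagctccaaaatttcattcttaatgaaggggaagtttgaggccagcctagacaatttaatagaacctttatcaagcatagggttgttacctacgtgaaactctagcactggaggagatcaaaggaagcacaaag
Windows were found for 8 of the 9 members, all but Itgae, and 4 motifs were searched on both strands. The Batf3 window held the gamma-activated site pattern TTCNNNGAA, starting at -239 from the RefSeq start, and GAGGAAG, the core that Ets factors and PU.1 bind, at -153. These patterns occur in 8.3% and 13.6% of all 32851 promoter windows of the same length. The AP-1 pattern TGANTCA, found in 7.81% of windows, was in the Zbtb46 window at -61 from the RefSeq start. TTCNNNGAA was in the Siglech window at -123, and the interferon-stimulated response element pattern, found in 3.44% of windows, was in none of the 8. The Zbtb46 window (chr2:181424339-181424638) lies inside the GENCODE span of the gene (chr2:181387762-181459426, minus strand), so its match is not upstream of that span. The Batf3 window likewise lies inside the GENCODE span of Batf3 (chr1:191097847-191108945, plus strand). The Clec9a and Xcr1 windows, like those of Cd209a, Flt3 and Fscn1, held none of these letters. A match describes the sequence and is not a binding site by itself.

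The depth was similar across tumors, with totals of 39157647 to 55168642 counts. Control replicate 1 stood apart from the other 11 tumors, at -101.79 on the first principal component (17.27% of the variance). It held 1620 counts of the lymph node chemokine Ccl21a against 0 to 56 in the 3 groups other than Control. Its summed level over the 8 B cell markers was 230 CPM (counts per 1000000 counts of the library, on library sizes scaled by TMM) against at most 15.7 in the rest. For the members and lists that this tumor moved most, values without it are given beside those with it. The labels name the samples as adipose-derived stromal cells although tumors were excised, and macrophage markers summed to 1415 to 2532 CPM in the tumors, so that the libraries are described here as whole tumors. In RNA from whole tumors, fewer cells of a type and less RNA per cell cannot be told apart.

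Per kilobase of exon, Fscn1 was far above the other members at 78.2 ± 13.1 CPM per kb (SD, n = 12), and its lowest tumor (61.9) was above the highest tumor of every other member. Fscn1 encodes fascin, an actin-bundling protein that mature dendritic cells share with neurons and many tumor cells. Next came Flt3 at 1.47 ± 0.506, Batf3 at 1.41 ± 0.451 and Cd209a at 1.28 ± 0.463 CPM per kb. Clec9a reached 0.588 ± 0.321, Zbtb46 0.472 ± 0.118, Itgae 0.424 ± 0.193, Xcr1 0.271 ± 0.175 and Siglech 0.266 ± 0.161 CPM per kb. Apart from Fscn1, the ranges of neighbours in this order overlapped. In counts, Xcr1 lay between 4 and 122 and Siglech between 8 and 81, whereas Flt3 had 291 to 790 and Fscn1 8624 to 14771, so that the precision for Xcr1 and Siglech was the lowest. The plot of the members by tumor shows these levels as CPM.

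**Figure D1:**
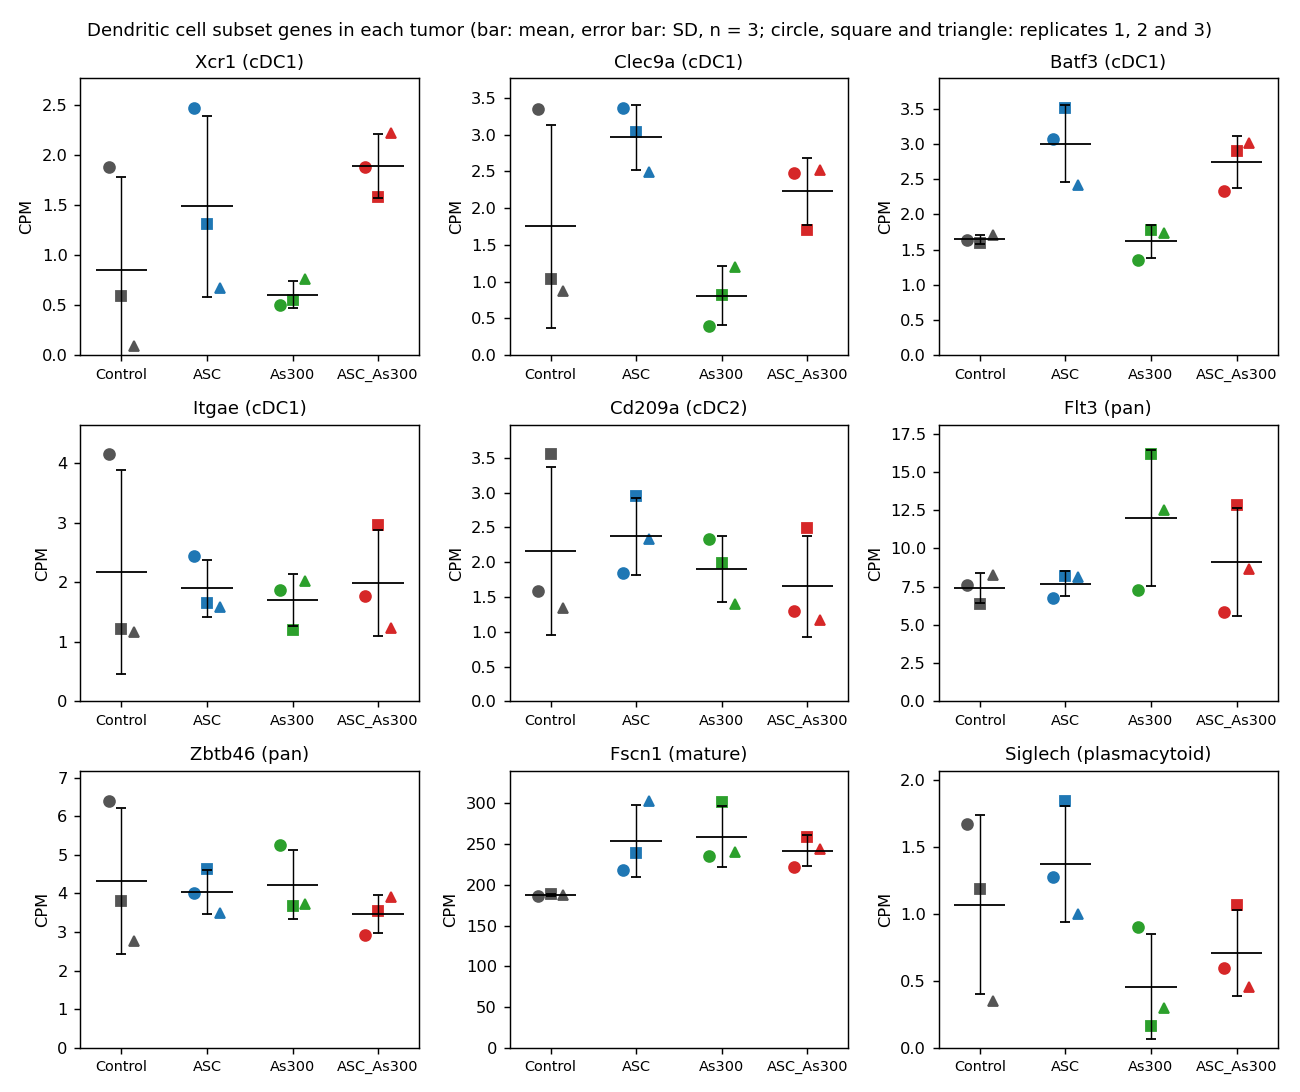
Level of each member in every tumor, in CPM on an axis from 0, with 3 tumors in each of Control, ASC, As300 and ASC_As300 (horizontal bar, mean; error bar, SD). Batf3 in the 6 tumors with ASC is above all 6 without, Fscn1 is lowest in the 3 Control tumors, and Control replicate 1 (circle) is high for Xcr1, Clec9a, Itgae and Zbtb46.

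Batf3, the transcription factor that cDC1 cells need to develop (Ensembl gene ENSMUSG00000026630, GRCm38 chr1:191097847-191108945, plus strand), was at 1.63, 1.59 and 1.71 CPM in the Control tumors and at 1.35, 1.78 and 1.73 in the As300 tumors. With ASC it was at 3.08, 3.51 and 2.42 CPM, and with ASC and iAs at 2.33, 2.90 and 3.01. The 6 tumors with ASC did not overlap the 6 without, and the difference was larger than the spread in either set. Averaged over both iAs levels, Batf3 rose 1.76-fold with ASC (log2 fold change 0.81, SE 0.18, 95% interval 0.43 to 1.19, adjusted p = 0.0309, edgeR quasi-likelihood F test with Benjamini-Hochberg adjustment over all genes tested). This was 1 of 9 members called, beside 1.45% of all genes called in this comparison (1.36% called up), where a call needs an adjusted p under 0.05 and at least a 1.5-fold change. A full separation of the 6 tumors with ASC above the 6 without was seen in 1.68% of all genes. The adjusted p stayed under 0.05 without Control replicate 1 (0.0462), ASC replicate 3 (0.0299) or ASC_As300 replicate 1 (0.0444), and rose to between 0.0597 and 0.106 without each of the other 9 tumors, with a log2 fold change of 0.75 to 0.88 throughout. With no filter on low counts the adjusted p was 0.0748 and Batf3 was not called. With 3 tumors against 3, the log2 fold changes were 0.87 in ASC (adjusted p = 0.148) and 0.74 in ASC_As300 (adjusted p = 0.201) against Control, and 0.76 in ASC_As300 against As300 (adjusted p = 0.284), none of them called by edgeR. Against Control, As300 tumors gave -0.02 with an interval of -0.56 to 0.52.

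Clec9a, the dead-cell receptor of cDC1 cells (chr6:129408862-129424763, plus strand), was at 3.35, 1.04 and 0.868 CPM in Control and at 3.36, 3.03 and 2.49 CPM in ASC tumors. The As300 tumors had 0.400, 0.818 and 1.20 CPM and the ASC_As300 tumors 2.475, 1.70 and 2.51. Control replicate 1 was at the level of the ASC tumors and the other Control tumors were at that of the As300 tumors, while As300 and ASC_As300 did not overlap. Over both iAs levels the log2 fold change with ASC was 1.11 (SE 0.36, adjusted p = 0.214, edgeR), which was not called. Without Control replicate 1 it was 1.54 with an adjusted p of 0.0107, and Clec9a was called, beside 1.96% of all genes in that fit. Under iAs alone, Clec9a gave -1.11 against Control (interval -2.22 to 0.01, adjusted p = 0.209, edgeR), a value that moved to -0.21 without Control replicate 1. ASC_As300 against As300 gave 1.46 (SE 0.51, adjusted p = 0.346, edgeR). The gene shares an exonic stretch on the same strand with Clec1b, which had 0 to 29 counts per tumor, so that some reads may have been placed in either gene.

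Xcr1, the chemokine receptor that marks cDC1 cells (chr9:123852315-123862029, minus strand), was at 1.88, 0.595 and 0.0868 CPM in Control and at 2.47, 1.31 and 0.676 in ASC tumors. In As300 it was at 0.500, 0.552 and 0.759 CPM and in ASC_As300 at 1.88, 1.58 and 2.22. The 3 ASC_As300 tumors were all above the 3 As300 tumors, whereas Control and ASC overlapped and Control replicate 3 held only 4 counts. The log2 fold change with ASC over both iAs levels was 1.22 (SE 0.53, 95% interval 0.07 to 2.37, adjusted p = 0.425, edgeR), and ASC_As300 against As300 gave 1.64 (adjusted p = 0.501). Without Control replicate 1 the former was 1.87 with an adjusted p of 0.0652, and the change with iAs alone turned from -0.50 to 0.83, neither of them called.

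Itgae, the integrin subunit CD103 that cDC1 cells share with tissue-resident T cells (chr11:73090583-73147446, plus strand), was not called in any comparison. Control tumors were at 4.15, 1.21 and 1.17 CPM, ASC tumors at 2.45, 1.66 and 1.585, As300 tumors at 1.88, 1.21 and 2.03 and ASC_As300 tumors at 1.77, 2.96 and 1.23. All groups overlapped, and Control replicate 1 was the highest of the 12 tumors. With ASC over both iAs levels its log2 fold change was 0.01 (interval -0.75 to 0.78, adjusted p = 0.998, edgeR), and without Control replicate 1 it was 0.44. Haspin, a gene on the opposite strand within the Itgae span that shares no exon with it, had 531 to 1068 counts, and whether the counting used strand is not given in the sources used here.

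Cd209a, the lectin that marks cDC2 cells and monocyte-derived cells (chr8:3743397-3748984, minus strand), was at 1.59, 3.55 and 1.345 CPM in Control, 1.84, 2.95 and 2.33 in ASC, 2.33, 1.98 and 1.395 in As300 and 1.30, 2.49 and 1.17 in ASC_As300. Every group overlapped every other. The log2 fold changes ran from 0.13 in ASC to -0.39 in ASC_As300 against Control, with intervals of -0.78 to 1.04 and -1.30 to 0.53 (adjusted p = 0.923 and 0.709, edgeR). Cd209a is 1 of 7 Cd209 paralogs counted here, with 59 to 185 counts beside 103 to 1003 for Cd209f, and reads that fit several paralogs may have been split among them.

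Flt3, the receptor tyrosine kinase for Flt3 ligand (chr5:147330741-147400489, minus strand), was at 7.63, 6.35 and 8.29 CPM in Control and 6.76, 8.20 and 8.16 in ASC tumors. As300 tumors had 7.28, 16.15 and 12.5 CPM and ASC_As300 tumors 5.84, 12.9 and 8.66. Replicates 2 and 3 of As300 and replicate 2 of ASC_As300 were the 3 highest of the 12 tumors, but in each of these groups another tumor lay within the Control range or below it. The log2 fold change was 0.69 in As300 against Control (SE 0.30, adjusted p = 0.184, edgeR) and 0.47 with iAs over both ASC levels (adjusted p = 0.308). The former was 0.42 without As300 replicate 2 and 0.95 without As300 replicate 1, and was not called in either fit. With ASC over both iAs levels it was -0.17 (interval -0.63 to 0.29).

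Zbtb46, a transcription factor of conventional dendritic cells and endothelium (chr2:181387762-181459426, minus strand), was at 6.41, 3.80 and 2.755 CPM in Control, 4.01, 4.64 and 3.50 in ASC, 5.25, 3.68 and 3.725 in As300 and 2.92, 3.555 and 3.92 in ASC_As300. All groups overlapped, with Control holding the highest and the lowest tumor. Its log2 fold changes against Control were -0.10 in ASC, -0.04 in As300 and -0.32 in ASC_As300, the last with an interval of -0.96 to 0.33 (adjusted p = 0.652, edgeR).

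Fscn1, the fascin gene of mature dendritic cells (chr5:142960343-142973185, plus strand), was at 186.5, 188.7 and 187.1 CPM in Control. ASC tumors had 218, 239 and 304 CPM, As300 tumors 236, 302 and 240.0 and ASC_As300 tumors 222, 259 and 244. Every tumor of the other 3 groups was above all Control tumors, as in 9.94%, 14.5% and 13.5% of all genes for ASC, As300 and ASC_As300 in turn, and the Control tumors differed little from each other (SD 1.11 CPM). The log2 fold changes were 0.44 in ASC (adjusted p = 0.150), 0.47 in As300 (SE 0.125, adjusted p = 0.0587) and 0.37 in ASC_As300 (adjusted p = 0.208) against Control by edgeR, so that none was called. They are 1.35-, 1.38- and 1.29-fold, under the 1.5-fold that a call needs. Other settings brought the adjusted p of Fscn1 under 0.05 with the fold still below that limit, to 0.0216 in ASC and 0.00465 in As300 by DESeq2, and to 0.0448 in ASC_As300 by edgeR on the 6 tumors compared. Fscn1 was also the member with the smallest p for the interaction of ASC and iAs, at -0.54 (SE 0.18, adjusted p = 0.309, edgeR). The cells that gave the Fscn1 reads cannot be told apart in whole tumors. The neuronal markers had a summed level of 59.0 to 78.0 CPM in Control and 89.3 to 145 CPM over the other groups. Much of the rise with ASC was Tubb3, with a mean of 27.9 CPM in Control, 74.5 in ASC and 80.4 in ASC_As300 tumors. Of the 8 neuronal genes, 7 were higher than Control in ASC, 8 in As300 and 7 in ASC_As300. In ASC_As300 against As300 only 1 was higher (median log2 fold change -0.87), where Fscn1 gave -0.10. The part of the neuronal genes in the Fscn1 values was not tested.

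Siglech, the surface lectin of plasmacytoid cells that some microglia also express (chr7:55768178-55778925, plus strand), was at 1.67, 1.19 and 0.347 CPM in Control and at 1.275, 1.85 and 1.00 in ASC tumors. The As300 tumors had 0.901, 0.1635 and 0.300 CPM and the ASC_As300 tumors 0.596, 1.07 and 0.455. The tumors with iAs included the lowest values, but Control replicate 3 was among them. Over both ASC levels Siglech gave -1.10 with iAs (SE 0.47, interval -2.13 to -0.08, adjusted p = 0.285, edgeR), and As300 against Control gave -1.25 (adjusted p = 0.284), neither of them called. Leaving out 1 tumor moved the As300 value of Siglech as far as -2.19, when As300 replicate 1 was removed, and -0.75, when Control replicate 1 was removed, and it was called in no such fit.

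Over both iAs levels, 3 members had an unadjusted p under 0.05 for the ASC effect (Xcr1, Clec9a and Batf3), beside 10.9% of all genes. Counted over the members, edgeR called none of the 9 against Control, whether in ASC, As300 or ASC_As300 tumors, beside 0.721%, 1.06% and 0.807% of all genes called. The same 3 Control tumors enter each of these comparisons. At an unadjusted p under 0.05 there were 2 members in each, Batf3 and Fscn1 in ASC (15.4% of all genes) and in ASC_As300 (15.2%), and Flt3 and Fscn1 in As300 (24.1%). By DESeq2, Batf3 was called in ASC (0.87, adjusted p = 0.0277, 1 of 9 members beside 2.64% of the genes with an adjusted p called up) and no member in As300 or ASC_As300. None of the 9 was called in ASC_As300 against As300, beside 0.855% of all genes, with 2 at an unadjusted p under 0.05 beside 9.98%. The groups of that comparison did not overlap for Xcr1, Clec9a and Batf3, all 3 of them higher in ASC_As300, as were 11.3% of all genes. In ASC_As300 against ASC, for the iAs effect and for the interaction, 0 members and 0% of all genes were called, with 0, 3 and 1 members at an unadjusted p under 0.05 beside 3.21%, 16% and 13.6%. Over all genes these counts moved with the settings, which are given under the dependence on the processing. Against Control, the members had a median log2 fold change of 0.36 in ASC, -0.19 in As300 and 0.30 in ASC_As300, and a median of 0.17 for the ASC effect, where the medians of all genes were -0.004, -0.03, -0.02 and -0.004.

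**Figure D2:**
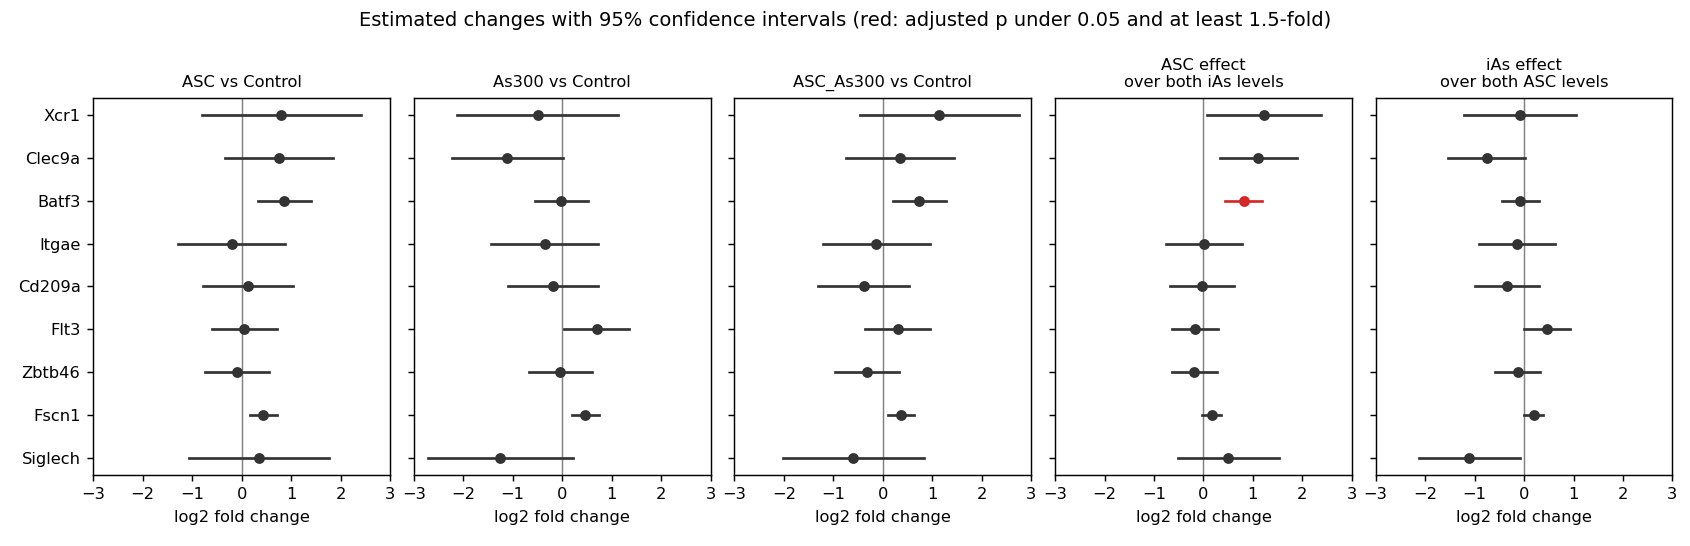
Log2 fold change of each member (x axis) with its 95% confidence interval in 5 comparisons, from the edgeR fit of all 12 tumors, with called members in red. Batf3 in the ASC effect over both iAs levels, at 0.81, is the only called value.

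The call of Batf3 and the values of Clec9a and Xcr1 were followed as each tumor was left out. The plot of the estimates without each tumor in turn shows that all 3 genes kept a positive ASC effect in all 12 fits. For Clec9a the lowest log2 fold change was 0.95 (Control replicate 3 left out) and the highest 1.54, and for Xcr1 they were 0.93 (ASC replicate 1 left out) and 1.87, both maxima with Control replicate 1 left out. Clec9a was called in 1 of the 12 fits and Xcr1 in 0.

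**Figure D3:**
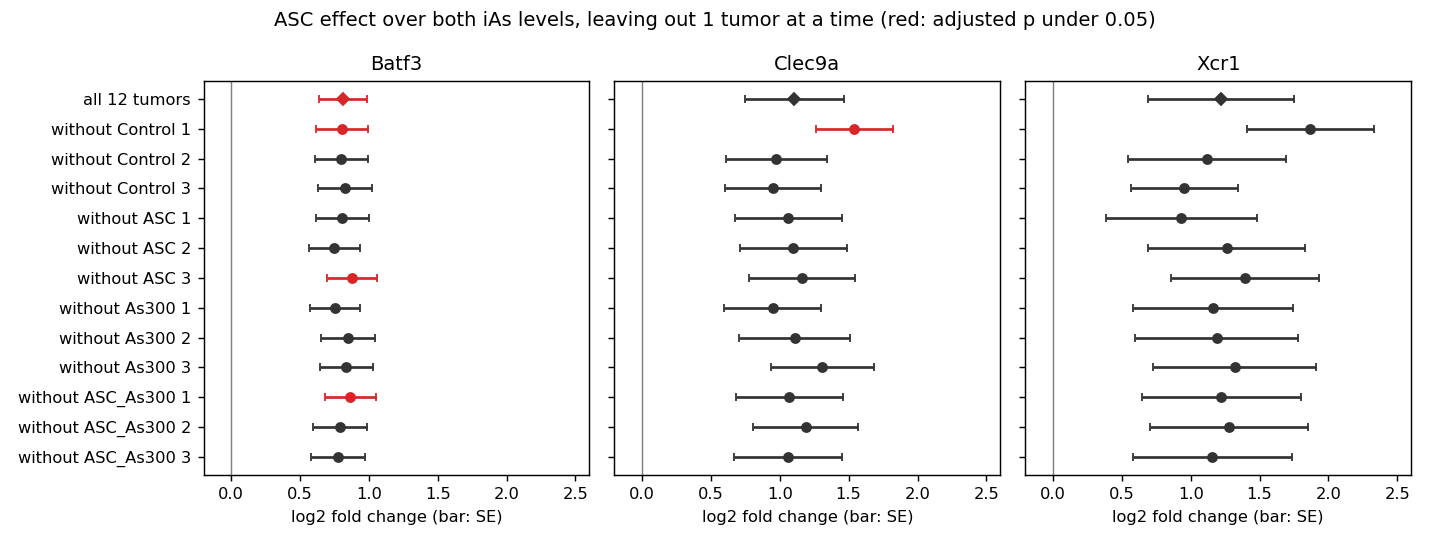
Log2 fold change with ASC over both iAs levels for Batf3, Clec9a and Xcr1 (x axis, bar: SE) with all 12 tumors and with each tumor left out, in red where the adjusted p is under 0.05. Removing Control replicate 1 moves Clec9a from 1.11 to 1.54 and Xcr1 from 1.22 to 1.87, and leaves Batf3 at 0.81.

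The members were then compared pair by pair. These correlations describe log2 CPM over 12 tumors that share their library preparation and groups. Pearson's r was 0.73 for Xcr1 and Clec9a (Spearman's rho 0.87) and 0.71 without Control replicate 1. For Clec9a and Batf3 r was 0.73 (rho 0.65), rising to 0.91 without Control replicate 1, and for Xcr1 and Batf3 it was 0.59 (rho 0.60), rising to 0.71. Taken as deviations from the group means, r was 0.76 for Xcr1 and Clec9a but 0.28 for Clec9a and Batf3 and 0.14 for Xcr1 and Batf3. Itgae had 0.54 with Xcr1, 0.41 with Clec9a and 0.07 with Batf3, and its r of 0.56 with Zbtb46 was 0.21 without Control replicate 1. Siglech had 0.54 with Itgae, 0.54 with Cd209a and 0.53 with Zbtb46. As deviations from the group means, r was 0.78 for Zbtb46 and Siglech, 0.75 for Xcr1 and Zbtb46, 0.64 for Xcr1 and Itgae and 0.63 for Itgae and Siglech. Over 12 tumors these pairs were thus closer within groups than either pair of Batf3 with Xcr1 or Clec9a. Without Control replicate 1 their plain r was 0.425, 0.27, 0.51 and 0.425 in turn, below that of both Batf3 pairs. How the deviations correlate without that tumor was not computed. Flt3 ran with Fscn1 (r 0.60, rho 0.59) and against Siglech (r -0.57, rho -0.48), and had r of -0.15 with Xcr1, -0.27 with Clec9a and -0.01 with Batf3. Without the 2 tumors farthest from the median of Flt3, r was 0.32 with Fscn1 and -0.49 with Siglech. As deviations from the group means, Flt3 had r of 0.63 with Fscn1, 0.63 with Batf3, 0.165 with Clec9a and -0.15 with Xcr1.

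**Figure D4:**
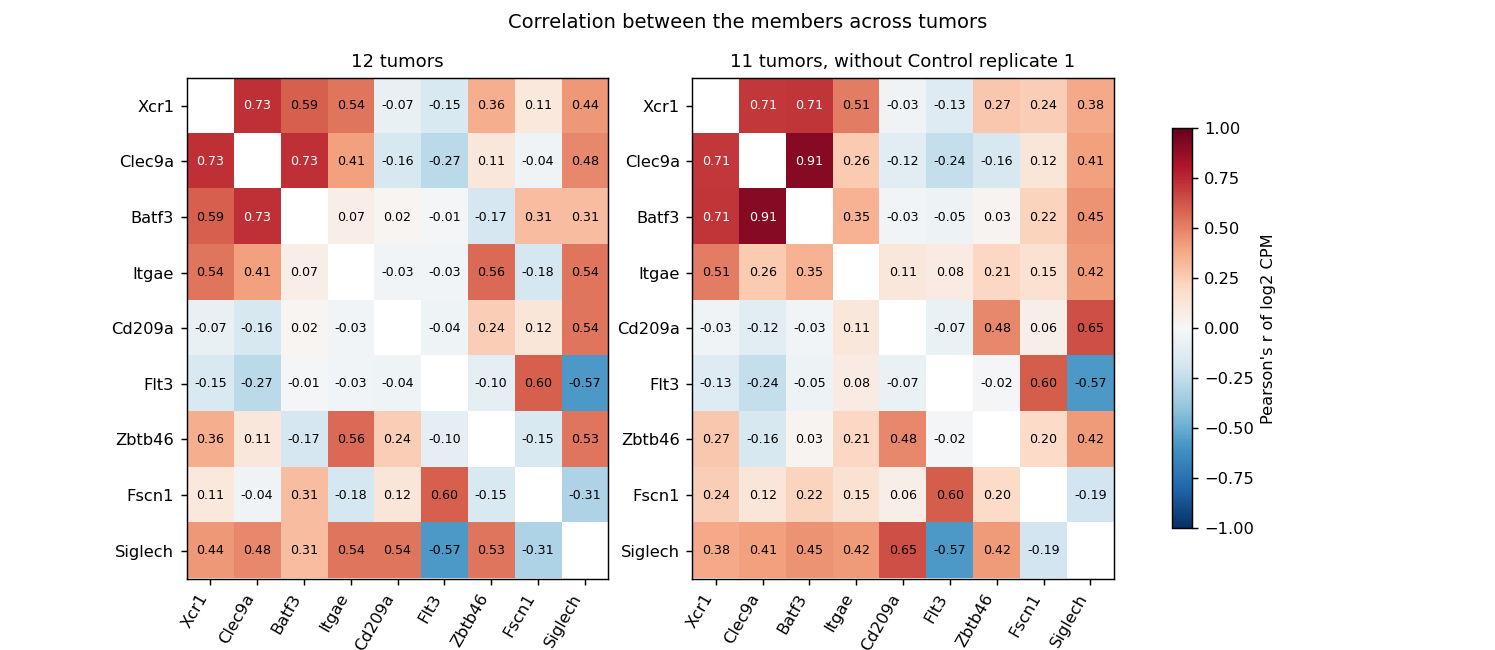
Pearson's r of log2 CPM between every pair of members (rows and columns), over 12 tumors on the left and 11 tumors without Control replicate 1 on the right. The 3 pairs among Xcr1, Clec9a and Batf3 are at 0.59 to 0.73, and at 0.71 to 0.91 without that tumor, Siglech is at 0.53 to 0.54 with Itgae, Cd209a and Zbtb46, and Flt3 is at or below 0.08 with every member but Fscn1.

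Among all other genes tested, those most like each member over the 12 tumors, by Pearson's r of log2 CPM, were found next. For Batf3 they were P2ry14 (0.961), Tor3a (0.959) and Fcgr1 (0.955). Clec9a was nearest to Tlr11 (0.952), the T cell adaptor gene Grap2 (0.948) and the CD8 beta chain gene Cd8b1 (0.946), and Xcr1 to Cyb561d1 (0.953), Plcb2 (0.939) and Tnf (0.932). Itgae ran with Nfkbid (0.909), Tspan32 (0.902) and BC035044 (0.895), and Zbtb46 with Tmc8 (0.930), Gm38111 (0.903) and Gm49524 (0.901). For Cd209a the nearest were Ppp1r14c (0.915), Myom2 (0.895) and Cmya5 (0.886), the last 2 of them genes of striated muscle. Flt3 was nearest to Acaa2 (0.926), Ddit4 (0.884) and Itpa (0.883), Fscn1 to Bloc1s1 (0.984), Ndufb7 (0.980) and Raly (0.980), and Siglech to Dpp4 (0.956), Ms4a4d (0.943) and ENSMUSG00000118607 (0.931), which has no symbol.

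The other genes of the dendritic program were read from lists that do not hold the members. Of 12 further cDC1 genes, 1 was called up in ASC and 2 in ASC_As300 against Control, and none in As300. At an unadjusted p under 0.05, 5 were higher in ASC, 2 were lower in As300, and 5 were higher and 2 lower in ASC_As300, the last 2 being Cd24a (-1.78) and Btla (-2.72), neither of them called. All genes at that p made up 15.4%, 24.1% and 15.2% in turn. Cadm1, an adhesion molecule of cDC1 cells, rose by 1.61 on the log2 scale in ASC (adjusted p = 0.00842) and by 1.87 in ASC_As300 (adjusted p = 0.00298), and Itgax, the integrin CD11c, rose by 1.13 in ASC_As300 (adjusted p = 0.0318, edgeR). Over both iAs levels, 5 of the 12 were called up with ASC by the same test, beside 1.36% of all genes called up. Irf8, a transcription factor of the cDC1 lineage, rose by 0.69 (adjusted p = 0.0477), and Tlr3, Naaa, Cadm1 and Itgax were the others called. Which cells of the tumors gave these reads was not tested. The median of the list was 0.36 in that comparison. With Control replicate 1 left out, 3 of the 12 (Cadm1, Itgax and Irf8) were called up in ASC, beside 1.01% of all genes, and the same 3 in ASC_As300, beside 0.937%, with none of the 12 lower at an unadjusted p under 0.05 in ASC_As300. None of the 11 cDC2 genes tested was called by edgeR for ASC, As300 or ASC_As300 tumors against Control, nor for the ASC effect, and Clec10a, a lectin of cDC2 cells and macrophages, gave 0.44 in ASC, -0.49 in As300 and -0.18 in ASC_As300. At an unadjusted p under 0.05, 2 cDC2 genes were higher in ASC, 3 lower in As300, and 1 higher and 1 lower in ASC_As300, beside 15.4%, 24.1% and 15.2% of all genes in turn. Their medians were 0.27, -0.29 and 0.06.

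Of 12 plasmacytoid genes, Bst2 and Irf7, both also induced by interferon in many cells, were called up in ASC (1.39 and 1.41 on the log2 scale), Bst2 and Pld4 in ASC_As300 and Pacsin1, a gene that neurons also use, in As300 (1.30, adjusted p = 0.0449, edgeR). The list went both ways, with 6 of 12 genes higher in ASC (median 0.06), 4 in As300 (median -0.09) and 6 in ASC_As300 (median 0.003). At an unadjusted p under 0.05, Spib (-2.29) and Runx2 (-0.24) were lower in ASC, and Spib (-2.91), Tcf4 (-0.26), a transcription factor that plasmacytoid cells need, and Ccr9 (-1.76), a defining receptor of the subset with 12 to 97 counts, in ASC_As300, none of them called. Siglech was not among the called genes either. With Control replicate 1 left out, 8 of the 12 were higher in ASC (median 0.77) and in ASC_As300 (median 0.43), and Bst2 and Pld4 were called up in both, whereas Irf7 was called in neither. At an unadjusted p under 0.05 by edgeR, 1 of the 12 was then lower in ASC and 0 in ASC_As300, beside 14.8% and 14% of all genes either way. Spib did not pass that p in either comparison of this fit. Of 16 genes of mature dendritic cells, Cd274, the checkpoint ligand PD-L1 that macrophages and tumor cells also make, was called up in ASC (1.35) and ASC_As300 (1.55) and none in As300. In As300, 12 of the 16 had a value below Control (median -0.40), and 4 were lower at an unadjusted p under 0.05, where 24.1% of all genes passed. These were Cd83 (-0.57), Cd86 (-0.40), Cd274 (-0.50) and Samsn1 (-0.74), none of them called. The median was -0.07 without Control replicate 1, and 3 genes (Cd274, Cd40 and Pdcd1lg2) were then called up in ASC and in ASC_As300. Ccr7, the receptor that guides mature cells to lymph nodes, was not called against Control, with 0.09 in ASC, -0.58 in As300 and -0.59 in ASC_As300. Ccl22, a chemokine of mature cells, gave -0.60 in ASC, -0.40 in As300 and -0.63 in ASC_As300, and was not called.

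Among 11 growth factors, ligands and their receptors, Ccl4 (2.24 on the log2 scale) and Ccl3 (2.07), chemokines that attract monocytes and dendritic cells, were called up in ASC and Ccl4 in ASC_As300 (1.95), with none in As300. Of these calls, only that of Ccl4 in ASC was made when Control replicate 1 was left out. Flt3l, the ligand of Flt3, was called up in ASC_As300 against As300 (0.60, adjusted p = 0.0457, edgeR), where Flt3 itself gave -0.40. Without Control replicate 1, Flt3l was not called there but kept an unadjusted p under 0.05 by edgeR, beside 10.6% of all genes. Over both iAs levels its change with ASC was 0.38, with an adjusted p of 0.0497 but under 1.5-fold. Xcl1, the ligand of Xcr1, had 0.86 with ASC over both iAs levels (adjusted p = 0.303), and it was not called in any comparison. For MHC class II presentation, the step that dendritic cells share with B cells and macrophages, 5 of 9 genes (H2-Eb1, H2-Ab1, H2-DMa, H2-DMb1 and Ctss) were called up in ASC and the same number in ASC_As300 against Control, 7 in ASC_As300 against As300 and 0 in As300. All genes called made up 0.721%, 0.807%, 0.855% and 1.06% in turn. Without Control replicate 1, 7 of the 9 were called up in ASC and in ASC_As300, beside 1.01% and 0.937% of all genes. As300 again had 0 called, but 8 of the 9 were then higher than Control in place of 1, and the median turned from -0.27 to 0.41. Of these, 5 had an unadjusted p under 0.05 by edgeR, beside 20.8% of all genes.

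Markers of other cells that could carry these transcripts moved beside the members. Of 12 macrophage genes, C1qa, C1qb and Fcgr1 were called up in ASC and in ASC_As300, and Cd14 in As300 (0.59 on the log2 scale). None of 10 T cell genes was called against Control by edgeR, with 4 lower at an unadjusted p under 0.05 in As300 and 0 in ASC or ASC_As300, and Cd8a was called for the ASC effect. Leaving out Control replicate 1 gave 6 T cell genes called up with ASC alone, 4 with ASC and iAs, 0 with iAs alone and 8 for the ASC effect. All genes called in these comparisons made up 1.01%, 0.937%, 0% and 1.96% in turn. With iAs alone, no T cell gene was then lower at an unadjusted p under 0.05. The summed level of the T cell genes was 53.3 to 70.6 CPM in ASC, 45.8 to 72.5 in ASC_As300 and 13.2 to 19.2 in As300, and in Control it was 85.7 in replicate 1 and 15.7 to 17.7 in the others. The mean log2 CPM of the T cell list had an r of 0.92 with Clec9a and 0.67 with Batf3 over 12 tumors, and 0.91 and 0.90 without Control replicate 1. Its part in the cDC1 values was not tested. NK cell genes gave 0 of 6 called against Control and Klre1 for the ASC effect. Without Control replicate 1, Klre1 was not called for that effect but 1 other NK gene was, beside 1.96% of all genes. By edgeR, 0 of 8 B cell, 0 of 8 endothelial, 0 of 6 microglial, 0 of 1 Langerhans and 0 of 3 lymph node stromal genes were called against Control. At an unadjusted p under 0.05, 7 or 8 of the B cell genes were lower than Control in each comparison, and without Control replicate 1 this held for 2 in As300 and 0 in the other comparisons. The microglial list had an r of 0.15 with Siglech. Of 8 neuronal genes Tubb3 was called up in ASC and ASC_As300 and Stmn2 in As300, and of 6 epithelial genes Krt8 was called down in ASC_As300 (-2.51 on the log2 scale), with 3238 to 16302 counts in Control. In ASC, Krt8 gave -2.26 (adjusted p = 0.057, edgeR), and it was called down for the ASC effect. Without Control replicate 1, Krt8 was called down in both ASC and ASC_As300, beside 1.01% and 0.937% of all genes called. With Control replicate 1 left out, 0% of all genes were called in As300 against Control, so that Pacsin1, Cd14 and Stmn2 were not called in that fit.

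**Figure D5:**
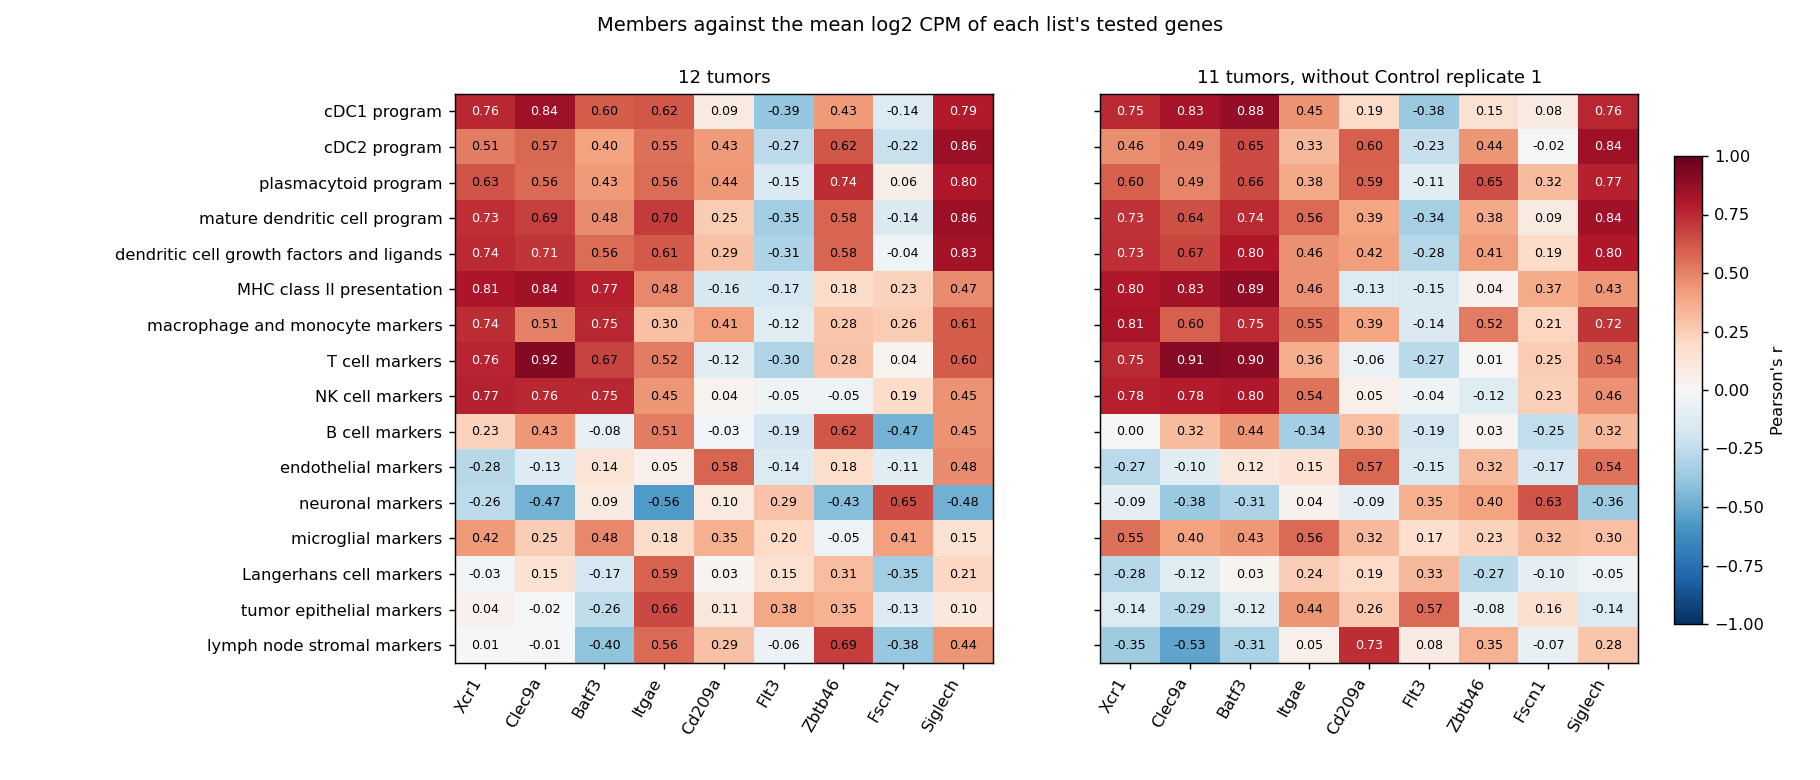
Pearson's r between each member's log2 CPM (columns) and the mean log2 CPM of each list's tested genes (rows), over 12 tumors on the left and 11 tumors without Control replicate 1 on the right. Clec9a has 0.92 with the T cell list and Siglech 0.86 with the cDC2 list, while Flt3 is at or below -0.15 with the 5 lists of the dendritic program over 12 tumors.

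Read against the lists over 12 tumors, Xcr1 had its highest r with MHC class II presentation (0.81), Clec9a with T cell markers (0.92) and Batf3 with MHC class II presentation (0.77). Without Control replicate 1, Xcr1 was highest with the macrophage list (0.815, beside 0.80 for MHC class II). Batf3 was then highest with the T cell list (0.90, beside 0.89 for MHC class II), and Clec9a stayed highest with T cell markers (0.91). The values that follow are over 12 tumors. Siglech had 0.86 with both the cDC2 and the mature lists, above its 0.80 with the plasmacytoid list. Cd209a had 0.43 with the cDC2 list and 0.58 with the endothelial list. Zbtb46 was highest with the plasmacytoid list (0.74), Fscn1 with the neuronal list (0.65), and Flt3 was negative with all 5 lists of the dendritic program.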

How the data were processed

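RNA from 12 TC2Ras tumors (3 per group) was sequenced from stranded poly(A) libraries. The deposited values are whole-number counts per Ensembl gene without normalization. The authors trimmed reads, aligned them to the mouse genome and quantified transcripts, and the submitters' processing notes name cutadapt 1.1.0, HISAT2 2.0 and StringTie 1.3.4. The step that made the counts, the genome build and the annotation are not given in the sources used here. Among low values, multiples of 4 were over-represented, so that the number of counts per read pair is unknown. Symbols, exon lengths and coordinates came from GENCODE M21 (GRCm38), which matched 55141 of 55401 genes.

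The software was DESeq2 1.42.0, limma 3.58.1 and edgeR 4.0.16 under R 4.3.3. Genes were filtered by filterByExpr, scaled by TMM and fitted with 1 mean per group over all 12 tumors, and tested with the quasi-likelihood F test and Benjamini-Hochberg adjustment. A call needs an adjusted p under 0.05 and at least 1.5-fold. Log2 CPM carry a prior count of 2. The steps were tested on simulated data. An exact test of 3 against 3 tumors cannot go below 0.1. The p-values are those of the fitted model and measure only the spread between these tumors.

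The members and the 16 other lists (142 genes) were chosen with earlier results of these data known. All members are named, with their 3 most similar genes and, per list, the defining genes and up to 3 genes of smallest p against Control, besides Xcl1 and Flt3l. H2-Eb1, Pacsin1, Cd14, Naaa, Klre1, Cd209f, Clec1b, Haspin, Cd24a, Btla, Spib, Runx2, Cd86, Samsn1 and Pdcd1lg2 are outside the rule, picked with their values in view. Alternatives were DESeq2, its size factors in edgeR, no filter, at least 10 counts in every tumor, counts divided by 4, the replicate number as a block, no minimum fold, only the 6 tumors compared and leaving out each tumor. DESeq2 set no adjusted p for Xcr1 and Siglech in ASC against Control and for Siglech with iAs over both ASC levels. Promoters came from RefSeq (GRCm38.p6).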

Additional observations from a re-analysis of the deposited data

How the results depend on the processing

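The number of members called was 0 in every comparison but the ASC effect over both iAs levels, in which it was 1 (Batf3). For that effect 7 of 19 alternatives kept the count. DESeq2 called 1 member in ASC against Control, Batf3. With no filter on low counts the ASC effect had 0 members called (Batf3 adjusted p = 0.0748, edgeR). With the replicate block it had 0 (Batf3 0.81, adjusted p = 0.0583, edgeR). The replicate numbers were not treated as pairs, since samples of the same number deviated from their group means with r of -0.124 to 0.172 over 18 pairs, 2 of them over 0.1. Leaving out 1 tumor gave 0 to 2 members called for the ASC effect (0 in 9 fits, 1 in 2 and 2 without Control replicate 1, where Clec9a joined Batf3) and 0 in each of the other comparisons. The causes were not tested.

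Some directions turned. Batf3 in As300 against Control, -0.02, was 0.002 by DESeq2, 0.014 with at least 10 counts in every tumor and 0.013 with counts divided by 4. Itgae was 0.042 in ASC_As300 against Control with the replicate block and -0.001 for the ASC effect with at least 10 counts in every tumor, and Xcr1 was 0.263 for the iAs effect with the replicate block. Where leaving out 1 tumor turned a log2 fold change, its range is given next. In ASC against Control it ran for Itgae from -0.48 to 0.68, Cd209a from -0.10 to 0.71, Flt3 from -0.031 to 0.16, Zbtb46 from -0.32 to 0.31 and Siglech from -0.042 to 0.84. In As300 against Control it ran for Xcr1 from -0.999 to 0.83, Batf3 from -0.094 to 0.093, Itgae from -0.62 to 0.54, Cd209a from -0.41 to 0.40 and Zbtb46 from -0.25 to 0.38. In ASC_As300 against Control it ran for Itgae from -0.53 to 0.74, Cd209a from -0.80 to 0.18, Flt3 from -0.028 to 0.55 and Zbtb46 from -0.55 to 0.083. In ASC_As300 against ASC it ran for Xcr1 from -0.001 to 0.92, Itgae from -0.35 to 0.32, Flt3 from -0.095 to 0.48 and Fscn1 from -0.18 to 0.083. In ASC_As300 against As300 it ran for Itgae from -0.20 to 0.47 and Fscn1 from -0.17 to 0.025. For the ASC effect it ran for Itgae from -0.19 to 0.44, Cd209a from -0.25 to 0.25 and Zbtb46 from -0.31 to 0.007. For the iAs effect it ran for Xcr1 from -0.33 to 0.59, Itgae from -0.34 to 0.30 and Zbtb46 from -0.24 to 0.077. For the interaction it ran for Xcr1 from -0.49 to 1.39, Clec9a from -0.20 to 1.07, Batf3 from -0.24 to 0.020, Itgae from -0.47 to 0.68, Zbtb46 from -0.61 to 0.018 and Siglech from -0.21 to 1.23. None of these was called. Of 864 estimates of members with 1 tumor left out, 801 kept direction and side of the threshold, as did 524 of 533 under the other alternatives.

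Over all genes, As300 against Control had 220 called with 12 tumors, 0 without Control replicate 1 and at most 816 under other settings. ASC against Control had 150, with 105 to 355 when 1 tumor was left out and 89 to 450 over all settings. The iAs effect had 0, with 59 without ASC replicate 3 and 114 by DESeq2, and the interaction had 0, with 174 by DESeq2. The low counts of Xcr1 and Siglech, and 3 tumors per group, limit what could be detected.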
